A study of Homo sapiens with 6 samples.

Results

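The 10 genes described here encode the claudins CLDN1, CLDN3, CLDN4, CLDN6, CLDN7, CLDN11 and CLDN12 and the tight junction proteins OCLN, TJP1 and F11R. They were taken from the table of 17100 transcripts by gene symbol, from a list drawn up with earlier results of these data known, and all 10 symbols were present. RNA sequencing was performed on MDA-MB-231, an established line of triple-negative human breast adenocarcinoma cells, in 3 vehicle libraries and 3 libraries of cells given SGI-110. SGI-110 (guadecitabine) is a dinucleotide of decitabine and deoxyguanosine that releases decitabine, an inhibitor of DNA methyltransferases. It was given at 1 µM for 96 h, and the cells then stood without drug for 24 h before harvest. The libraries came from 3 independent experiments with a single line, dose and time point, and vehicle was told from drug by the sample titles, since the treatment text of both groups is the same. The values are those of RNA and not of assembled junctions. Fewer cells with a transcript and less RNA of it per cell cannot be told apart in such bulk libraries.

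Tight junctions seal the space between neighbouring epithelial cells. Claudins are small proteins that span the membrane and form the strands of the junction, and the mix of claudins in a cell sets which ions the seal lets through. Occludin (OCLN) is a second strand protein of the MARVEL family, F11R (JAM-A) is an adhesion protein with immunoglobulin-like domains, and TJP1 (ZO-1) is the cytoplasmic scaffold that ties the strands to actin. Low claudin expression is a known trait of one group of triple-negative tumors and cell lines, to which MDA-MB-231 is usually assigned. The vehicle libraries here nonetheless held 4899 to 5511 counts of CLDN4 and 916 to 1076 of CLDN7, beside 127 to 158 of CLDN3. The assignment of the line was not tested. Several claudin genes are known to be methylated in particular cancers.

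Because the drug acts on methylation of CpG sites, the stretches before the start of the genes with the largest rises, CLDN11 and CLDN1, and of the claudin that fell, CLDN4, are shown with each CpG in capitals. They are RefSeq promoter sequences of the GRCh38.p14 build, found without a difference in GRCh37, the assembly of hg19 to which the reads were aligned, and they stop where the transcript in the table or the RefSeq start begins. CLDN11 was read at chr3:170136406-170136652 on the plus strand, CLDN1 at chr3:190040236-190040485 on the minus strand and CLDN4 at chr7:73245076-73245192 on the plus strand, each 5′ to 3′.
CLDN11: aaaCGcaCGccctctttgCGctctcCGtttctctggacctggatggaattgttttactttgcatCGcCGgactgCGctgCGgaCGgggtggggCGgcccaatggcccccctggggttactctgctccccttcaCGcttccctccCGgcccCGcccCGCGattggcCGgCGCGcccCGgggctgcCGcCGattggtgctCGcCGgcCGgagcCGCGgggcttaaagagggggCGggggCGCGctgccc
CLDN1: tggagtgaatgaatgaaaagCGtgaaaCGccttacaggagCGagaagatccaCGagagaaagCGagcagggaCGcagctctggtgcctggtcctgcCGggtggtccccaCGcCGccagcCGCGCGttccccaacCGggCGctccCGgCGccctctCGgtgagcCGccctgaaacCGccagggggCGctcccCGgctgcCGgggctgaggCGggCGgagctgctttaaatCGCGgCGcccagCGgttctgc
CLDN4: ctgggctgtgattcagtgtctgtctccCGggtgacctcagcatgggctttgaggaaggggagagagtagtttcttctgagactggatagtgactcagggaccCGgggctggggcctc

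Counted over the 250 bases before the RefSeq start, the CLDN11 window held 29 CpG sites and the CLDN1 window 28, more than 85.9% and 84.1% of the 35116 promoter windows in the RefSeq table, whose median was 11. The CLDN4 window held 4, more than 29.3% of all windows. Among the other members, TJP1 held 26 CpG sites, OCLN 24, CLDN3 19, CLDN6 18, CLDN12 12 and CLDN7 9. F11R was not in the table of windows. The windows of the 4 genes that did not pass the test below (CLDN3, CLDN12, OCLN and TJP1) held 12 to 26 CpG sites, while those of the called genes in the table held 4 to 29. Methylation was not measured in these libraries, and a link between CpG sites and the changes was not tested. The 6-letter motif CAGGTG, an E-box bound by SNAI and ZEB repressors, was searched on both strands. It was found in 2 of 9 member windows, those of OCLN and TJP1, against 17.5% of all windows. The RefSeq starts lay 0 to 255 bp from the start of the transcript in the table, and the OCLN window lies inside that transcript. The windows of CLDN4, CLDN12, CLDN6 and CLDN11 reach 133, 127, 4 and 3 bases into theirs, so their CpG counts include those bases. CLDN7, CLDN11 and OCLN had 2 windows each and TJP1 had 4. Of these, only the window nearest to the start of the transcript was counted.

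The libraries held 17602570 to 22277442 counts in vehicle and 8792127 to 21410849 after guadecitabine, with replicate 2 of guadecitabine the least deep. Vehicle replicate 3 stood apart, with 20 transcripts at 0 counts against 1593 to 2517 in the other libraries. Over the 2038 transcripts without a count in vehicle replicates 1 and 2 it had 8.03 counts per kb of exon, while the like value was at most 0.443 in the other libraries. Members of low level are therefore also described without this library. Only transcripts with at least 11 counts over all libraries were present, so this choice of transcripts can raise the 8.03 of vehicle replicate 3. The like values of vehicle replicates 1 and 2 rest on only 10 and 12 transcripts. KRT8, KRT18, KRT19 and VIM, which this line is known to express, had 4974 to 82480 counts in each library, whereas the receptor genes ESR1 and PGR had at most 1 count in each library but vehicle replicate 3, where they had 67 and 43. ERBB2, the other receptor gene looked at, was present, with 1891, 1702 and 1974 counts in vehicle and 1172, 552 and 999 after guadecitabine. It was called lower (log2 fold change -0.74, edgeR adjusted p = 0.00122). The 3 keratins KRT8, KRT18 and KRT19 added up to 46700 to 53000 normalized counts in vehicle and 28500 to 38900 after guadecitabine, and KRT8 and KRT19 were called lower. The mesenchymal markers VIM, CD44 and ZEB1 added up to 69900 to 73600 in vehicle and 101000 to 114000 after guadecitabine, and CD44 (log2 fold change 1.18, edgeR adjusted p = 2.66e-05) and VIM (0.33, edgeR adjusted p = 0.0258) were called higher. The luminal markers CDH1, EPCAM, GATA3 and FOXA1 added up to 730 to 773 in vehicle and 848 to 893 after guadecitabine. GATA3 was called higher (0.83, edgeR adjusted p = 0.000512), CDH1 and EPCAM were called lower, and FOXA1 was not tested. Of markers of other cell types, CDH5 and CLDN5 of endothelium and PTPRC of leukocytes had 0 to 8 counts in each library but vehicle replicate 3, where they had 10 to 36. Summed, the 4 endothelial markers reached 56.9 to 150 normalized counts in vehicle and 97.8 to 127 after guadecitabine, mostly from PECAM1, and the 3 leukocyte markers present reached 140 to 238 and 171 to 189, mostly from CD14. The 4 fibroblast markers added up to 412 to 723 normalized counts in vehicle and 1910 to 2510 after guadecitabine. This came from COL1A1, with a log2 fold change of 3.38 (edgeR adjusted p = 3.34e-05), while PDGFRB fell by 0.92 on the log2 scale (edgeR adjusted p = 0.00116) and the defining markers DCN and COL3A1 had 0 to 5 counts in each library but vehicle replicate 3. The part of these markers in the results below was not tested.

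Of the 10 genes, 5 were higher after guadecitabine and 1 was lower in the edgeR quasi-likelihood test at a Benjamini-Hochberg adjusted p of 0.05 over the 13322 genes tested. CLDN11, CLDN1, CLDN6, CLDN7 and F11R rose and CLDN4 fell, while CLDN3, CLDN12, OCLN and TJP1 did not pass the test. Over all genes tested, 19.3% were higher and 18.4% lower. The median log2 fold change of the members was 0.40, and that of all genes tested was 0.02. In 6 members all guadecitabine libraries lay above all vehicle libraries and in 2 all lay below, where 26.6% and 25% of all genes did so. A two-sided exact permutation test of a single gene over the libraries gave p = 0.1 for each of these, the smallest that 3 against 3 libraries allow, while TJP1 gave 0.7 and OCLN 1. Against a fold of 2 in place of no change, 2 of the members, CLDN11 and CLDN1, passed the test upward and 0 downward. Without guadecitabine replicate 3, 3 members were higher and 0 lower, and the calls over all genes fell to 1706 higher and 1629 lower.

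**Figure D1:**
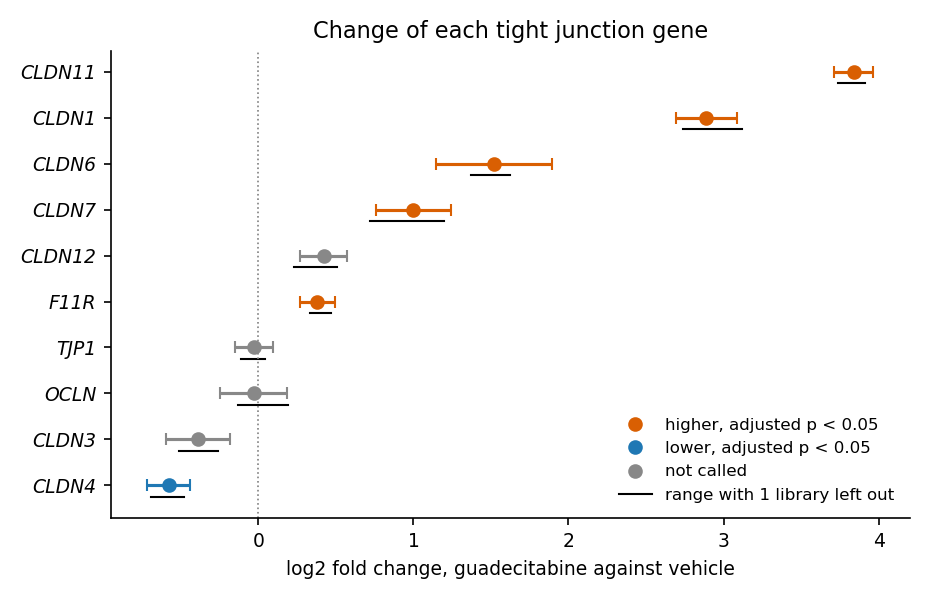
Log2 fold change of each of the 10 genes (points) with its standard error (bars), guadecitabine against vehicle, 3 libraries each, and the range of the value when each library is left out in turn (black line under each point). Orange points were called higher and the blue point lower (edgeR, adjusted p under 0.05), and CLDN11 at 3.84 and CLDN1 at 2.89 stand apart from the other 8, which lie between -0.58 and 1.52.

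CLDN11, the claudin of myelin and of Sertoli cell junctions, showed the largest rise. It had 84, 74 and 83 counts in vehicle replicates 1, 2 and 3 and 1276, 535 and 1051 in those of guadecitabine, where replicate 2 was the least deep library. The groups were far apart, and the normalized counts of guadecitabine lay close together at 1032, 1087 and 1060. The change was 14.4-fold (log2 fold change 3.84, standard error 0.127, edgeR adjusted p = 1.21e-07), from 74.0 ± 8.68 to 1060 ± 27.8 normalized counts (SD, n = 3). Leaving out single libraries gave log2 fold changes between 3.74, without vehicle replicate 3, and 3.91. The gene lies on chromosome 3 from 170136653 to 170152479 in hg19 with 3 exons, of which 21.4% of the bases also belong to another annotated gene of the same strand, so that reads of the shared bases cannot be told apart.

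CLDN1, a sealing claudin of skin and other epithelia, had 70, 49 and 114 counts in the vehicle libraries and 674, 216 and 555 in the guadecitabine libraries. The normalized counts were 66.6, 51.7 and 87.9 against 545, 439 and 560, again without overlap. Its rise was 7.43-fold (log2 fold change 2.89, standard error 0.199, edgeR adjusted p = 1e-05). Without vehicle replicate 3 the log2 fold change was 3.12, the highest value when a library was left out, and 2.74 was the lowest. CLDN1 lies on chromosome 3 from 190023490 to 190040235 with 4 exons, and all stretches of 50 bases in them occur once in the genome (100%).

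CLDN6, an embryonic claudin that is silent in most adult tissues, was the member of lowest level in vehicle. It had 17, 21 and 31 counts in vehicle and 67, 33 and 58 after guadecitabine, or 16.2, 22.1 and 23.9 against 54.2, 67.1 and 58.5 normalized counts. All libraries of guadecitabine were above those of vehicle, and the rise was 2.86-fold with a 95% interval of 1.60 to 5.12 (log2 fold change 1.52, standard error 0.373, edgeR adjusted p = 0.0116). The background of vehicle replicate 3, which may be set too high, would make up about 11 of the 31 CLDN6 counts there. Subtracting it gave a log2 fold change of 1.70 (edgeR adjusted p = 0.00185), while leaving this library out gave 1.62 (edgeR adjusted p = 0.00127). The call was lost without guadecitabine replicate 2 (edgeR adjusted p = 0.0534) and without guadecitabine replicate 3 (edgeR adjusted p = 0.0603). Its neighbour CLDN9 lies 206 bp away on the opposite strand of chromosome 16 and, named here after its values were seen, had 16.2, 17.9 and 19.3 normalized counts in vehicle and 8.90, 12.2 and 4.03 after guadecitabine (log2 fold change -1.13, edgeR adjusted p = 0.175). Without vehicle replicate 3 the CLDN9 value was -1.11 (edgeR adjusted p = 0.0752), and with the background subtracted it was -0.78 (edgeR adjusted p = 0.31). CLDN9 passed the filter on low counts through its vehicle libraries, where it was high, so its value is not independent of that filter. Of the stretches of 50 bases in the CLDN6 exons 86.5% occur once in the genome, so that some reads may be shared with similar sequences. CLDN6 lies on chromosome 16 from 3064713 to 3068188.

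CLDN7, an epithelial claudin that binds the adhesion protein EPCAM, was already abundant in vehicle. It had 1076, 1000 and 916 counts in vehicle and 1635, 1257 and 1711 after guadecitabine. The normalized counts spread widely in the treated group, at 1322, 2555 and 1725 against 1023, 1055 and 707, with replicate 2 the highest. The rise was 2.00-fold with a 95% interval of 1.38 to 2.92 (log2 fold change 1.00, standard error 0.240, edgeR adjusted p = 0.0104). Leaving out single libraries gave values between 0.72 and 1.2 on the log2 scale, and the largest edgeR adjusted p was 0.0393. CLDN7 lies on chromosome 17 from 7163222 to 7166512. In the GENCODE transcript nearest to the one counted, 15.9% of the exon bases overlap with exons of ELP5 and another gene.

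CLDN4, an epithelial claudin and receptor of a clostridial enterotoxin, was the most abundant member and the only one of the 10 that fell in the edgeR test. It had 5511, 4899 and 5497 counts in vehicle and 3480, 1862 and 3218 after guadecitabine, or 5242, 5167 and 4240 against 2814, 3785 and 3245 normalized counts. The groups did not overlap, and the level was 1.49-fold lower (log2 fold change -0.58, standard error 0.137, edgeR adjusted p = 0.0100). Without guadecitabine replicate 3 the edgeR adjusted p was 0.0559 at a log2 fold change of -0.57. CLDN4 lies on chromosome 7 from 73245193 to 73247023 and is annotated as 1 exon, 60592 bp from CLDN3.

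CLDN3, also a receptor of that toxin, had 121, 155 and 122 normalized counts in vehicle and 85.7, 120 and 99.8 after guadecitabine. Replicate 2 of guadecitabine lay just under the lowest vehicle library. The log2 fold change was -0.39 (standard error 0.205, edgeR adjusted p = 0.160), with a 95% interval of 0.552 to 1.05 for the fold. CLDN3 lies on chromosome 7 from 73183327 to 73184600. CLDN12, a claudin without the usual end motif that binds scaffold proteins, had 744, 870 and 797 normalized counts in vehicle and 1334, 939 and 944 after guadecitabine. All treated libraries were above the vehicle libraries, but replicate 1 stood far above the other two. Its log2 fold change of 0.42 (standard error 0.153) missed the threshold with an edgeR adjusted p of 0.0558, while CLDN12 passed in the DESeq2 Wald test (DESeq2 adjusted p = 0.0349) and without guadecitabine replicate 2 (edgeR adjusted p = 0.037). Without guadecitabine replicate 1 the log2 fold change was 0.23 (edgeR adjusted p = 0.115). CLDN12 lies on chromosome 7 from 90032648 to 90045268.

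Outside the claudins, F11R changed and the scaffold and occludin genes did not pass the test. F11R had 726, 751 and 732 normalized counts in vehicle and 843, 1035 and 1005 after guadecitabine. The vehicle libraries were nearly equal and all lay under the treated ones, and the rise was 1.30-fold with a 95% interval of 1.09 to 1.55 (log2 fold change 0.38, standard error 0.111, edgeR adjusted p = 0.0245). The call was lost without vehicle replicate 1 (edgeR adjusted p = 0.0895), vehicle replicate 2 (0.0703), guadecitabine replicate 2 (0.0579) or guadecitabine replicate 3 (0.110). F11R lies on chromosome 1 from 160965001 to 160991133, and of its exon bases 37.6% also belong to another annotated gene of the same strand.

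TJP1 had 1185, 1035 and 1256 normalized counts in vehicle and 1250, 1012 and 1130 after guadecitabine, and the groups overlapped. The log2 fold change was -0.03 (standard error 0.121, edgeR adjusted p = 0.857), with a 95% interval of 0.809 to 1.18 for the fold. TJP1 lies on chromosome 15 from 29991571 to 30261002. OCLN had 105, 101 and 153 normalized counts in vehicle and 129, 120 and 105 after guadecitabine, with vehicle replicate 3 the highest of all. Its log2 fold change was -0.03 (standard error 0.217, edgeR adjusted p = 0.928), with a 95% interval of 0.698 to 1.38 for the fold. The background of vehicle replicate 3, which may be set too high, would account for about 52 of the 199 OCLN counts in that library. The log2 fold change was 0.11 after its subtraction (edgeR adjusted p = 0.652) and 0.19 without this library (edgeR adjusted p = 0.434). OCLN lies on chromosome 5 from 68788119 to 68853931. Of its exons, 33.6% of the stretches of 50 bases occur once in the genome, so that the OCLN count is uncertain. Differences between members in the size of their change were not tested.

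**Figure D2:**
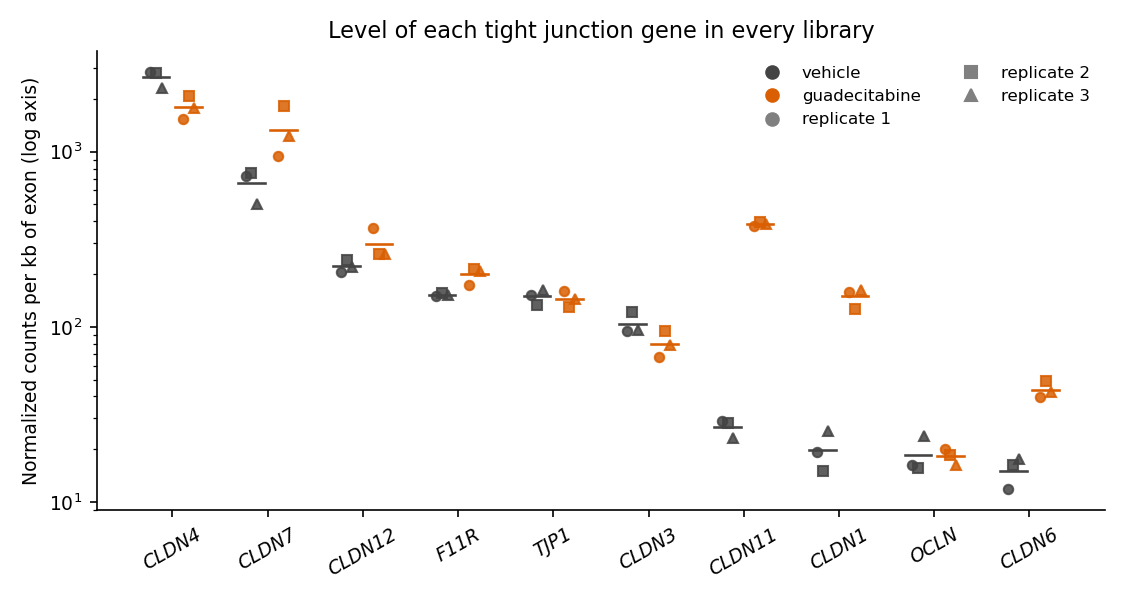
Normalized counts per kb of exon (log axis) of each gene in every library, vehicle in grey and guadecitabine in orange, with a symbol for each replicate and a line at the group mean, genes in the order of their vehicle level. CLDN11 and CLDN1 move from 26.8 and 19.9 to 384 and 149, while OCLN and TJP1 overlap between the groups.

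To compare levels between genes, normalized counts were taken per kb of exon. In vehicle the order was CLDN4 (2667 ± 305 per kb, SD, n = 3), CLDN7 (661 ± 137), CLDN12 (222 ± 17.5), F11R (152 ± 2.71), TJP1 (149 ± 14.5), CLDN3 (104 ± 15.3), CLDN11 (26.8 ± 3.14), CLDN1 (19.9 ± 5.28), OCLN (18.6 ± 4.54) and CLDN6 (15.1 ± 2.96). The ranges of F11R and TJP1 overlapped, as did those of each neighbouring pair from CLDN11 to CLDN6. After guadecitabine CLDN4 (1792 ± 266 per kb) and CLDN7 (1330 ± 448) overlapped at the top, and CLDN11 (384 ± 10.1) took the third place, above CLDN12 (296 ± 62.6) and F11R (199 ± 21.4) without overlap. CLDN1 (149 ± 19.1) and TJP1 (145 ± 15.3) overlapped, and CLDN3 (79.9 ± 13.5), CLDN6 (43.7 ± 4.79) and OCLN (18.3 ± 1.86) followed. OCLN thus became the lowest member by this measure. Its place is uncertain, since only 33.6% of the stretches of 50 bases in its exons occur once in the genome.

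**Figure D3:**
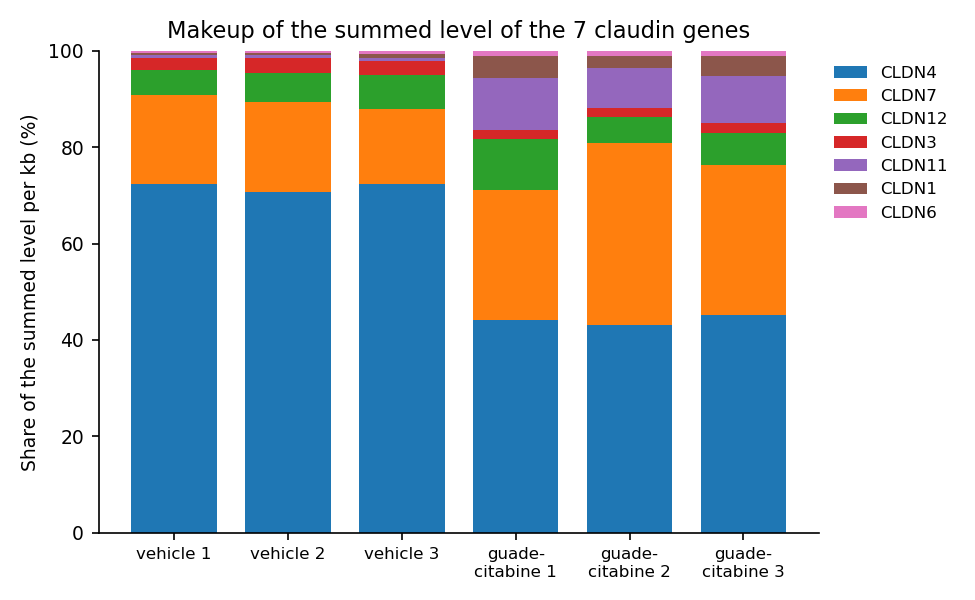
Share of each of the 7 claudins in their summed level per kb (percent, stacked to 100) in each library. The CLDN4 share is 70.6 to 72.4 in the vehicle libraries and 43.0 to 45.1 in the guadecitabine libraries, and the CLDN11 share grows from under 1 to between 8.19 and 10.7.

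The summed level of the 7 claudins was 3952, 3994 and 3201 per kb in vehicle and 3485, 4810 and 3928 after guadecitabine, so that the groups overlapped. The makeup of this sum differed. CLDN4 held 71.8% ± 1.01 of it in vehicle and 44.1% ± 1.07 after guadecitabine (SD, n = 3), CLDN7 held 17.7% ± 1.69 and 32% ± 5.45, and CLDN11 held 0.721% ± 0.0126 and 9.56% ± 1.28. The CLDN1 share was 0.553% ± 0.218 in vehicle and 3.77% ± 0.993 after guadecitabine, whereas that of CLDN12 was 6.03% ± 0.839 and 7.53% ± 2.70 with overlapping libraries. Since these shares add up to a whole, a lower share of one claudin comes with a higher share of the others.

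Other genes of epithelial junctions were read from the same fit. Of 84 genes listed, 78 were in the table and 61 were tested, of which 8 were higher and 16 lower, where 19.3% and 18.4% of all genes tested were so called. Their median log2 fold change was -0.11. Among the other claudins, CLDN2, which forms a pore for cations, fell from 462, 458 and 424 to 108, 69.1 and 91.8 normalized counts, 4.88-fold lower (log2 fold change -2.29, standard error 0.164, edgeR adjusted p = 1.22e-05). CLDN2 had 2 promoter windows, and the one nearest to the start of its transcript held 0 CpG sites in the 250 bases before the start. The other window was not counted. CLDN2 was the only gene of this list whose window was counted, and a link to its fall was not tested. In all, 2 of 5 tested claudins of this list fell, CLDN2 and CLDN23, and 0 rose. CLDN14, named after its values were seen, had 0, 1 and 16 counts in vehicle and 25, 13 and 26 after guadecitabine. Its log2 fold change was 2.32 (edgeR adjusted p = 0.0965). Without vehicle replicate 3, which leaves vehicle counts of 0 and 1, it was 5.24 (edgeR adjusted p = 0.000261). With the background of that library subtracted it was 3.86 (edgeR adjusted p = 0.00199). Without any other single library it was 1.78 to 2.46 (edgeR adjusted p = 0.176 to 0.248). CLDN14 passed the filter on low counts through its guadecitabine libraries, where it was high, so its rise is not independent of that filter.

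**Figure D4:**
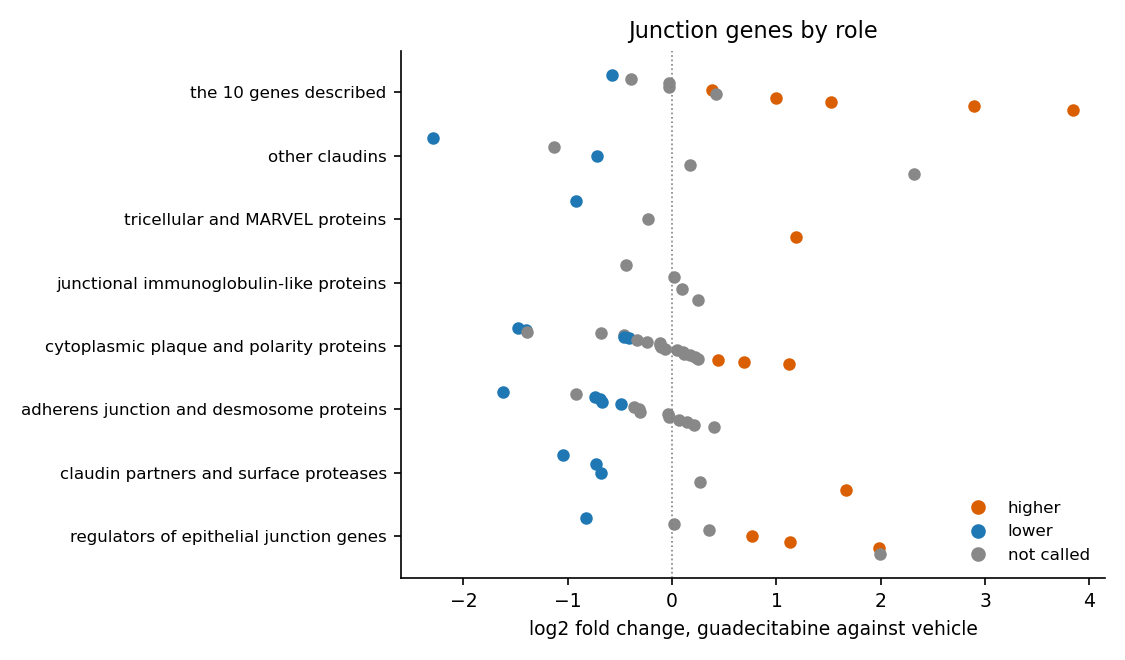
Log2 fold change, guadecitabine against vehicle, of the 10 genes described (top) and of the other tested junction genes by role, 1 point per gene, colored by its edgeR call at the same threshold. The junctional immunoglobulin-like genes lie between -0.44 and 0.25 without a call. Of the 15 adherens junction and desmosome genes 0 were called higher, against 19.3% of all genes tested.

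Of the tricellular and MARVEL genes 1 rose, 1 fell and 1 was not called. Over all genes tested, 19.3% were higher and 18.4% lower, the background for each count in this paragraph. LSR, the tricellular lipoprotein receptor, rose from 622, 721 and 594 to 1314, 1718 and 1404 normalized counts (log2 fold change 1.19, edgeR adjusted p = 0.000174). Of 22 plaque and polarity genes 3 rose and 4 fell. Cingulin (CGN), a plaque protein that binds TJP1, rose with a log2 fold change of 1.12 (edgeR adjusted p = 0.00735; 1.44 without vehicle replicate 3), while the PDZ scaffolds INADL (-1.48, edgeR adjusted p = 0.00073) and MAGI1 (-1.40, edgeR adjusted p = 1.94e-05) fell. The 4 tested immunoglobulin-like genes included 0 calls, and the most significant of them, CLMP, had a log2 fold change of 0.25 (edgeR adjusted p = 0.216).

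Of 15 genes of adherens junctions and desmosomes 5 were lower and 0 higher, with a median log2 fold change of -0.32, and over all genes tested 18.4% were lower and 19.3% higher. E-cadherin (CDH1) had 38, 25 and 87 counts in vehicle and 20, 6 and 13 after guadecitabine, or 8.97 normalized counts per kb of exon in vehicle, below each of the 10 genes described. Its log2 fold change was -1.62 (standard error 0.504, edgeR adjusted p = 0.0313). The call was lost without vehicle replicate 1 (edgeR adjusted p = 0.0614) and without guadecitabine replicate 1 (0.0667), 2 (0.0916) or 3 (0.114). It was also lost with a block for the replicate number (0.0638), with no filter on low counts (0.0544) and against a fold of 2 (0.489). Without vehicle replicate 3, whose count was the highest, the log2 fold change was -1.14 (edgeR adjusted p = 0.019). Among claudin partners and surface proteases 1 of 5 rose and 3 fell, beside 19.3% and 18.4% of all genes tested. In 2 of these 3 all guadecitabine libraries lay below all vehicle libraries, as they did in 25% of all genes tested. The CLDN7 partner EPCAM fell by 0.68 on the log2 scale (edgeR adjusted p = 0.00446), whereas the protease inhibitor SPINT1 rose by 1.67 (edgeR adjusted p = 0.000126).

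Among 7 tested regulators of epithelial junction genes 3 rose and 1 fell, beside 19.3% and 18.4% of all genes tested. SNAI1, a repressor of epithelial genes, rose from 55.2, 43.2 and 68.6 to 234, 201 and 225 normalized counts (log2 fold change 1.98, edgeR adjusted p = 0.000102), and ESRP2, an epithelial splicing factor, rose from 95.1, 122 and 113 to 228, 258 and 239 (log2 fold change 1.13, edgeR adjusted p = 0.000555). ZEB2, the other called riser, rose by 0.77 on the log2 scale (edgeR adjusted p = 0.00669). SNAI2, a relative of SNAI1, fell by 0.83 (edgeR adjusted p = 0.00113), and ZEB1 was not called (0.02, edgeR adjusted p = 0.939).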

How the data were processed

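RNA from MDA-MB-231 cells was analysed in 3 vehicle and 3 guadecitabine libraries, grouped by their labels. The authors aligned reads to hg19 with STAR (version 2.3.1z in the submitters' processing notes), counted exon reads per RefSeq transcript with iRNA-seq and deposited raw counts. They also deposited regularized log2 values, a mean normalized signal, and a log2 fold change, test score, p-value and adjusted p-value of their own DESeq2 comparison, none of which was used. The treatment of multiply mapped reads and of strand is not given in the sources used here.

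The raw counts went into edgeR 4.0.16 under R 4.3.3 (TMM, filterByExpr with a minimum count of 10, quasi-likelihood test, two-sided, threshold 0.05 after adjustment over 13322 genes). Normalized counts are counts divided by TMM-scaled library size, times the mean library total of 17888476. Intervals are at 95% from the fit. P-values set the difference between the groups against the spread between these libraries, estimated with the help of all genes tested. Precision is limited by 3 libraries per group and, for low genes, by counting error. The members and lists were chosen with earlier results of these data known. The text names all members, and in each role group the genes past the threshold with a log2 change of at least 1, up to 3 in each direction, or else the most significant one, except that some genes are not reported here. Further genes are counted in the lists or were named after their values were seen (EPCAM, SNAI2, ZEB2, CLDN23, CLDN9 and CLDN14). The fit was tested on simulated data. Of 10 members, 9 had a promoter window, matched to GRCh37 by sequence with Python 3.11.15. Exon models came from GENCODE 44 on GRCh37, and starts were written 1-based. Alternatives were a replicate block, DESeq2 1.42.0, its size factors, library totals, other filters, a fold threshold of 2, each library left out, and, added after the data were seen, subtraction of the vehicle replicate 3 background.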

Additional observations from a re-analysis of the deposited data

How the results depend on the processing

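The calls of CLDN1 and CLDN11 and the absence of a call for CLDN3, OCLN and TJP1 were the same under all 14 alternatives. Tested against a fold of 2, 435 genes were higher and 261 lower over all genes, 2 members were higher (CLDN1 and CLDN11) and 0 lower, and 2 other junction genes were higher and 2 lower. With each library left out in turn, 3 to 5 members were higher and 0 to 1 lower, 7 to 12 other junction genes were higher and 11 to 17 lower, and over all genes 1706 to 3002 were higher and 1629 to 2575 lower, with the lowest counts of all genes and of members without guadecitabine replicate 3. CLDN12 was called under the DESeq2 test (log2 fold change 0.41), with DESeq2 size factors (0.41), with at least 10 counts in every sample (0.42) and without guadecitabine replicate 2 (0.51). The causes were not tested. CDH1, CLDN9 and CLDN14 had no value with at least 10 counts in every sample. The median log2 fold change of all genes was between -0.11 and 0.05 under the alternatives. Of the 11 other claudins in the table, 5 passed the filter on low counts. With no filter, 2332 genes were higher and 2040 lower.

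The replicate numbers are shared by the groups, but same-numbered libraries had correlations of deviations from their group means between -0.05 and 0.049, and 2 of 6 libraries were closest to their own number. With the replicate block 5 members were higher and 1 lower, 9 other junction genes were higher and 15 lower, and 2424 genes were higher and 2230 lower. The block changed the call of CDH1 and of no other gene named by rule.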
